A study of Ovis aries with 16 samples.

Results

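The testis of the adult ram gave 66 well-expressed predicted miRNAs. A predicted miRNA is here a mature miRNA found by predicting hairpins from the sheep genome and the reads themselves, with no entry as a known sheep miRNA. They were selected on their level. A predicted miRNA was taken when its mean over all 16 libraries was at least 100 CPM, the reads of a miRNA in 1000000 reads of the miRNA class, and 11 predicted miRNAs that had been singled out for their difference between diets in earlier results of these data were left out by name. Of 271 listed miRNAs, 103 were known and 168 predicted. The mean reached 100 CPM for 76 of the predicted ones, 10 of the 11 left out by name were among these, and 66 (39.3% of the predicted) remained. The names below keep the authors' number after the prefix "candidate". Their level, and through the miRNAs left out their difference between diets, was therefore used in the choice, and both are given as a description.

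Testis tissue was taken from 16 sexually mature Merino males, 8 fed to gain 10% of body mass over 65 days (well-fed) and 8 fed to lose 10% over the same time (underfed). The labels name no other treatment, and the males of the 2 diets were balanced for body mass, scrotal size and semen quality but were not paired. Total RNA of each male gave 1 small RNA library, so a replicate is a separate male. The authors predicted miRNAs from the reads of all libraries pooled, so that the same animals served to find the miRNAs and to measure them.

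A miRNA is a short RNA cut from a hairpin precursor and loaded into an Argonaute protein, which it guides to messenger RNAs through its 5′ seed, with repression as the usual outcome. Several miRNAs can be cut from a single transcript, and such clusters are common on the X chromosome. In the testis, miRNAs are made in Sertoli cells, germ cells, peritubular muscle, vessels and resident leukocytes alike. In this bulk tissue, fewer cells of a type and less RNA per cell cannot be told apart.

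Of the 66, 63 were paired in the study's supplement with a homologue of another species and 3 were not, while 44 of the 102 other predicted miRNAs had no homologue. The supplement called 29 of the 66 highly conserved, 12 conserved and 22 poorly conserved. The median of the mean levels was 816 CPM in the highly conserved class, 607 CPM in the conserved class and 428 CPM in the poorly conserved class, with wide overlap, since the highly conserved class alone ran from 100.7 to 25710.4 CPM. The supplement's table of genomic clusters held 13 of the 66, and 9 of these were on chromosome X. A homologue's name is used below only to say what is known of that miRNA elsewhere.

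The libraries differed in depth and in make-up. The miRNA class held 17163 to 503916 reads in well-fed and 27797 to 1058985 reads in underfed males, and in 3 libraries (well-fed replicate 5, underfed replicates 6 and 8) it held fewer than 100000. There, 3 reads were worth 59.9 to 175 CPM, against 2.83 to 20.1 CPM in the 13 deeper libraries. The ratio of miRNA to piRNA reads was 0.355 to 0.908 in well-fed males and 1.40 to 3.13 in 7 underfed males, but 0.517 in underfed replicate 1, a library that stood apart in many values below. Whether its diet label is right was not tested, and it was kept in the group the labels give. The factors that scale libraries to each other (TMM) were 1.08 to 1.39 in well-fed males (median 1.15) and 0.698 to 1.26 in underfed males (median 0.802). The 3 miRNAs fixed as markers of germ cells in and after meiosis (homologues of miR-34b, miR-34c and miR-449a, all among the miRNAs left out) summed to 47497 to 71079 CPM in well-fed males (median 64054) and 10978 to 58155 CPM in underfed males (median 21506), with 44629 CPM in underfed replicate 1. These 3 had been singled out for their difference between diets in the same data. The difference of their sum between diets is therefore no independent evidence of tissue make-up. Both measured markers of smooth muscle summed to 138660 to 215633 CPM over both diets, while 2 markers of skeletal and heart muscle reached at most 58.2 CPM and 4 of epithelium at most 180 CPM. The part of tissue make-up and depth in the values that follow was not tested.

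The level of the 66 was uneven. All values in CPM are shares of the miRNA class and are not divided by length, since mature miRNAs are of nearly equal length. The mean level was over 10000 CPM for 4 of them, 1000 to 10000 CPM for 16 and 100 to 1000 CPM for 46, with a median of 534 CPM. The highest ranked 9th of all 271 miRNAs, 4 were among the 20 most abundant and 15 among the 50 most abundant. All 66 were above 0 in each of the 13 deeper libraries. Only 3, candidate-miR-20, candidate-miR-19 and candidate-miR-158, were at 0 anywhere, all in underfed replicate 6, where a count of 0 allows up to 108 CPM (3 reads, counting error only).

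Together the 66 took 11.7% to 15.3% of the miRNA reads in well-fed males (13.5% ± 1.35, SD, n = 8) and 9.18% to 15.9% in underfed males (11.2% ± 2.08, SD, n = 8). The highest share of all, 15.9%, was that of underfed replicate 1. The 4 most abundant alone made up 5.55% to 8.59% in well-fed males and 4.42% to 8.74% in underfed males. The 4 and the 12 most abundant were the same miRNAs in both diets. Over the 66, the levels of 2 libraries were correlated with a Spearman coefficient of 0.647 to 0.982 (median 0.903), a description across miRNAs, which are not independent replicates and share each library's scaling.

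candidate-miR-121, the miR-92a homologue, led the list with values from 17939.5 to 48179 CPM in well-fed males (median 30002) and from 12628 to 45306 CPM in underfed males (median 17325). MiR-92a is cut from the miR-17-92 transcript, which promotes proliferation, and from a second copy on chromosome X. candidate-miR-140, whose homologue miR-146b is induced by inflammatory signalling and dampens it, followed with values from 10896 to 22087 CPM in well-fed males (median 13815) and from 11617 to 27396 CPM in underfed males (median 14603). The miR-92a homologue was the highest of the 66 in 12 libraries, all 8 well-fed ones included, and the miR-146b homologue in underfed replicates 2, 3, 5 and 7. The miR-92a homologue had its highest underfed value in replicate 1, and the other 7 underfed CPM values were under 7 of the 8 well-fed values. That did not hold once scaled by TMM, where underfed replicate 7, at 26288, lay above the well-fed median of 24532.

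candidate-miR-179, the homologue of miR-27b, ranged from 11266 to 19209 CPM in well-fed males (median 13117) and from 7409 to 16364 CPM in underfed males (median 11997). MiR-27b is a repressor of many messenger RNAs in muscle and vessels. candidate-miR-43 (miR-186-5p, cut from an intron) ranged from 8402 to 12680.1 CPM in well-fed males (median 11847) and from 6981 to 13311 CPM in underfed males (median 9492). All 4 were above every other one of the 66 on average, and candidate-miR-43, the lowest of the 4, exceeded the next, candidate-miR-6, in 16 of 16 libraries. By contrast candidate-miR-140 exceeded candidate-miR-179 in 8 of 16 libraries, so their order was not fixed, and candidate-miR-179 exceeded candidate-miR-43 in 14 of 16.

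**Figure D1:**
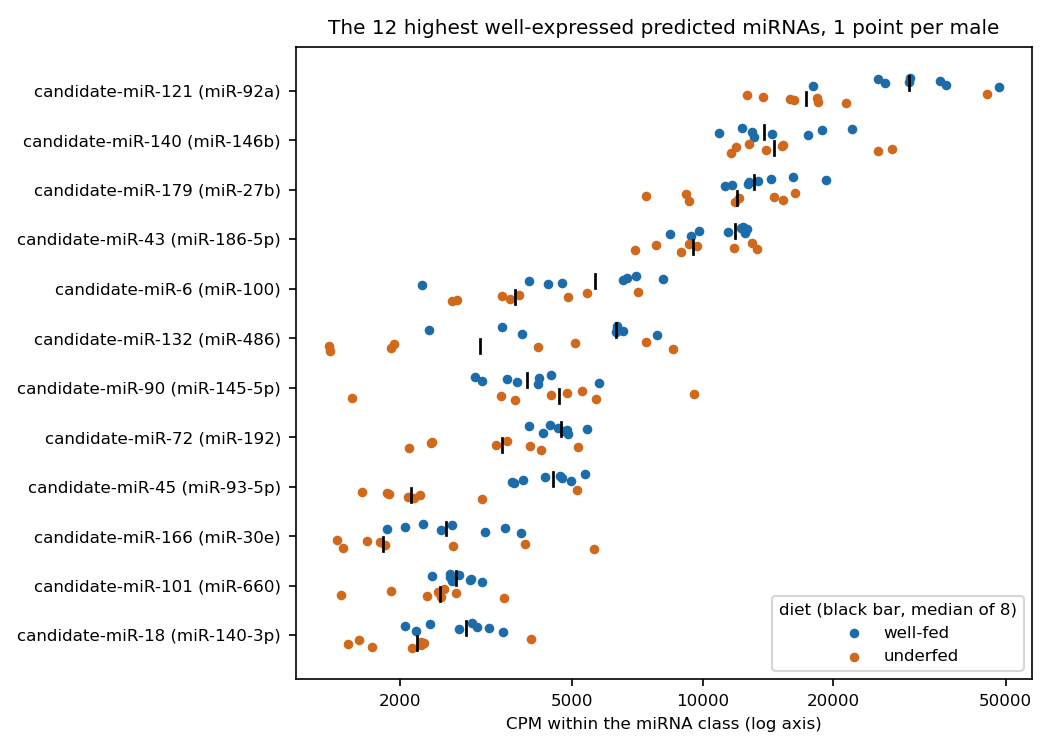
Level of the 12 most abundant of the 66 predicted miRNAs in each library, in CPM within the miRNA class on a log axis. Each point is 1 male, blue marks well-fed and orange underfed males, and the short black line is the median of a diet; the first 4 lie around and above 10000 CPM in both diets, and the ranges of the diets overlap for all 12.

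The next group held miRNAs known from vessels, blood and muscle. candidate-miR-6, the homologue of miR-100, a repressor of growth factor signalling, ranged from 2253 to 8093 CPM in well-fed males (median 5636) and from 2635 to 7087 CPM in underfed males (median 3681). candidate-miR-132, whose homologue miR-486 is abundant in red blood cells and muscle, ranged from 2336 to 7829 CPM in well-fed males (median 6318) and from 1372 to 8546 CPM in underfed males (median 3057). candidate-miR-90, the homologue of the smooth muscle miRNA miR-145-5p, ranged from 2973 to 5773 CPM in well-fed males (median 3937) and from 1547 to 9536 CPM in underfed males (median 4667). These 3 did not separate in order: candidate-miR-6 exceeded candidate-miR-132 in 11 of 16 libraries, and candidate-miR-132 exceeded candidate-miR-90 in 11 of 16.

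candidate-miR-72, the homologue of miR-192, a miRNA of epithelia that responds to p53, ranged from 3976 to 5402 CPM in well-fed males (median 4717) and from 2099 to 5144 CPM in underfed males (median 3432). candidate-miR-45 (miR-93-5p, of a paralogue of the miR-17-92 cluster) ranged from 3619.7 to 5341 CPM in well-fed males (median 4511) and from 1635 to 5129 CPM in underfed males (median 2122). All underfed CPM values of the miR-93-5p homologue but that of replicate 1 lay under its well-fed range. Once scaled by TMM, underfed replicates 7 (3069) and 8 (3081) also lay inside the well-fed range of 2909 to 4512. candidate-miR-166, the homologue of miR-30e, ranged from 1864 to 3806 CPM in well-fed males (median 2559) and from 1428 to 5599 CPM in underfed males (median 1823), with the top value in the shallow underfed replicate 8.

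candidate-miR-101 (miR-660) is encoded on chromosome X and ranged from 2371 to 3096 CPM in well-fed males (median 2688) and from 1460.4 to 3473 CPM in underfed males (median 2470.3). candidate-miR-18 (miR-140-3p, known from cartilage) ranged from 2057 to 3453 CPM in well-fed males (median 2836) and from 1519 to 4016 CPM in underfed males (median 2183). Among neighbours from the fifth to the 12th place, the higher one on average exceeded the lower in 7 to 11 of 16 libraries, so that these levels did not form a fixed order. The 12th, candidate-miR-18, exceeded the 13th, candidate-miR-143 (let-7e), in 15 of 16 libraries.

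At the other end, 14 of the 66 had a mean between 100 and 200 CPM. The lowest were candidate-miR-97 (miR-18a) with 100.7 CPM, candidate-miR-151 (miR-6123) with 104 CPM and candidate-miR-38 (miR-1388-3p) with 113 CPM. Just under the limit were candidate-miR-149 (miR-767-5p) with 94.4 CPM, candidate-miR-108 (miR-195) with 92.9 CPM and candidate-miR-39 (miR-215-5p) with 86.3 CPM, so the limit falls in a run of similar levels. The lowest, median and highest values of the miR-767-5p homologue were 59.5, 122 and 184 CPM in well-fed and 26.2, 48.1 and 174 CPM in underfed males. Those of the miR-195 homologue were 0, 84.4 and 133 CPM in well-fed and 35.98, 67.6 and 219.6 CPM in underfed males, and those of the miR-215-5p homologue 44.7, 73.6 and 379 CPM in well-fed and 9.98, 39.1 and 216 CPM in underfed males. All 3 overlapped between diets and with the members just above the limit. candidate-miR-151 was listed at 88.0, 127.1 and 233 CPM in well-fed and 29.1, 54.3 and 188 CPM in underfed males (lowest, median and highest). The lowest, median and highest values of candidate-miR-38 were 78.1, 119 and 246 CPM in well-fed and 59.9, 83.4 and 125 CPM in underfed males. When the limit was set on the median over libraries, candidate-miR-97 and candidate-miR-151 fell below it and 64 of the 66 remained.

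The immune group held 5 of the 66 and all 5 listed members of it. Besides candidate-miR-140 it comprised candidate-miR-141, the homologue of miR-146a, which shares the seed of miR-146b, candidate-miR-174 (miR-155, induced in activated leukocytes), candidate-miR-60 (miR-142, restricted to blood cells) and candidate-miR-134 (miR-342). candidate-miR-141 ranged from 204 to 679.7 CPM in well-fed males (median 253) and from 134 to 911 CPM in underfed males (median 212). The miR-146b homologue exceeded the miR-146a homologue in 16 of 16 libraries, by 25.8 to 70.8 times in well-fed males and by 30.1 to 134 times in underfed males. Reads that fit both could have been split in the counting, and both miRNAs held values that ended on 0.5 reads. candidate-miR-60 ranged from 466 to 1084 CPM in well-fed males (median 687) and from 261 to 1230.2 CPM in underfed males (median 668), with its lowest value of all in underfed replicate 1. candidate-miR-174 and candidate-miR-134 varied less, from 233 to 540 CPM and from 576 to 1259 CPM over both diets.

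The 8 listed relatives of abundant known sheep miRNAs formed the next group, at 191 to 12987 CPM on average. Inside each library, the miR-27b homologue exceeded the known paralogue oar-miR-27a in 16 of 16 libraries, by 1.09 to 2.15 times. candidate-miR-6 (miR-100) exceeded oar-miR-99a in 15 of 16 libraries, with a ratio of 0.427 to 6.51 and a median of 3.25. The other 4 with a measured known partner were the minor one in every library: candidate-miR-107 (miR-29a) was at 0.0292 to 0.192 times the level of oar-miR-29a, candidate-miR-143 (let-7e) at 0.0264 to 0.0489 times that of oar-let-7a, candidate-miR-127 (miR-148b-3p) at 0.0117 to 0.0926 times that of oar-miR-148a and candidate-miR-166 at 0.0986 to 0.615 times that of oar-miR-30d. candidate-miR-166 exceeded candidate-miR-165 (miR-30f) in 16 of 16 libraries, by 3.91 to 31.2 times, and candidate-miR-165 had lowest, median and highest values of 155, 192 and 272 CPM in well-fed and 100.7, 167 and 365 CPM in underfed males. Values that ended on 0.5 reads occurred in 14 of the 66, so reads may have been split between close relatives, and levels within a family carry that uncertainty.

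Genomic neighbours came next. On chromosome 10 the supplement placed candidate-miR-97 (miR-18a), candidate-miR-93 (miR-20a-5p) and a copy of candidate-miR-121 (miR-92a) in 1 cluster, the miR-17-92 cluster in other mammals. candidate-miR-93 ranged from 421 to 1111 CPM in well-fed males (median 658) and from 161 to 978 CPM in underfed males (median 448). candidate-miR-97 ranged from 58.3 to 181 CPM in well-fed males (median 101.3) and from 13.4 to 199.6 CPM in underfed males (median 90), and its value of 13.4 CPM in underfed replicate 1 rested on 2 reads. The miR-92a homologue exceeded the miR-18a homologue by 99.3 to 452 times in well-fed males and 99.7 to 3379 times in underfed males, and the last value was that of underfed replicate 1. The ratio of the miR-92a to the miR-20a homologue likewise had its highest value, 282, in that library, against 16.1 to 83.7 in well-fed males. The miR-93-5p homologue exceeded the miR-20a homologue in 16 of 16 libraries, by 3.26 to 10.3 times in well-fed males and 3.16 to 31.9 times in underfed males. candidate-miR-121 may also come from its X copy, and the shares of the 2 copies in these levels cannot be told apart.

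The cluster known from other mammals for miR-532, miR-660 and miR-502 lies on chromosome X and gave candidate-miR-101, candidate-miR-57 (miR-532-5p) and candidate-miR-40 (miR-502b). candidate-miR-57 ranged from 892 to 1541 CPM in well-fed males (median 1173) and from 965 to 1520.3 CPM in underfed males (median 1204). candidate-miR-40 ranged from 619 to 1454 CPM in well-fed males (median 998) and from 439 to 2501 CPM in underfed males (median 686), with the highest value in underfed replicate 1. candidate-miR-101 exceeded candidate-miR-57 in 16 of 16 libraries by 1.51 to 3.11 times, a narrow range, and exceeded candidate-miR-40 in 16 of 16 by 1.01 to 7.91 times.

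A further X cluster holds miR-424, miR-542 and miR-450a, of which miR-424 shares a seed with miR-15 and slows the cell cycle. candidate-miR-51 (miR-424) ranged from 625 to 1103 CPM in well-fed males (median 795) and from 359.8 to 1517 CPM in underfed males (median 728). candidate-miR-169 (miR-542-3p) ranged from 175 to 639.7 CPM in well-fed males (median 289.7) and from 114 to 599 CPM in underfed males (median 272). candidate-miR-193 (miR-450a) ranged from 366 to 811 CPM in well-fed males (median 578) and from 329 to 1138 CPM in underfed males (median 585). Underfed replicate 1 held the lowest underfed CPM of the miR-542-3p and miR-450a homologues and, once scaled by TMM, the lowest underfed value of all 3. candidate-miR-51 exceeded candidate-miR-169 in 16 of 16 libraries and candidate-miR-193 in 13 of 16, and the last pair, candidate-miR-193 and candidate-miR-169, stood at a ratio of 0.572 to 3.57.

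The last X cluster pair was candidate-miR-47 (miR-224) and candidate-miR-63 (miR-3431). candidate-miR-47 had lowest, median and highest values of 153, 208 and 339.7 CPM in well-fed and 144, 204 and 504 CPM in underfed males. candidate-miR-63 had values of 133, 170.0 and 196 CPM in well-fed and 72.0, 175 and 221 CPM in underfed males, and the lowest was 2 reads of underfed replicate 6. Their ratio was 0.741 to 1.94 in the 13 deeper libraries and 7 in underfed replicate 6.

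Relatives of miR-15 were at close levels. candidate-miR-109 (miR-15a-5p) ranged from 641 to 936 CPM in well-fed males (median 887) and from 499.5 to 1657 CPM in underfed males (median 579). candidate-miR-110 (miR-15b-5p) ranged from 1103 to 1809 CPM in well-fed males (median 1389) and from 498 to 2558 CPM in underfed males (median 665). The miR-15a homologue was below the miR-15b homologue in all 8 well-fed males (ratio 0.393 to 0.797) and above it in 4 underfed males (0.195 to 2.18), with the lowest ratio in underfed replicate 1. candidate-miR-52 (miR-497-5p), of the same seed family, ranged from 816 to 1837 CPM in well-fed males (median 1282) and from 611 to 2156 CPM in underfed males (median 1067) and exceeded candidate-miR-109 in 16 of 16 libraries.

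**Figure D2:**
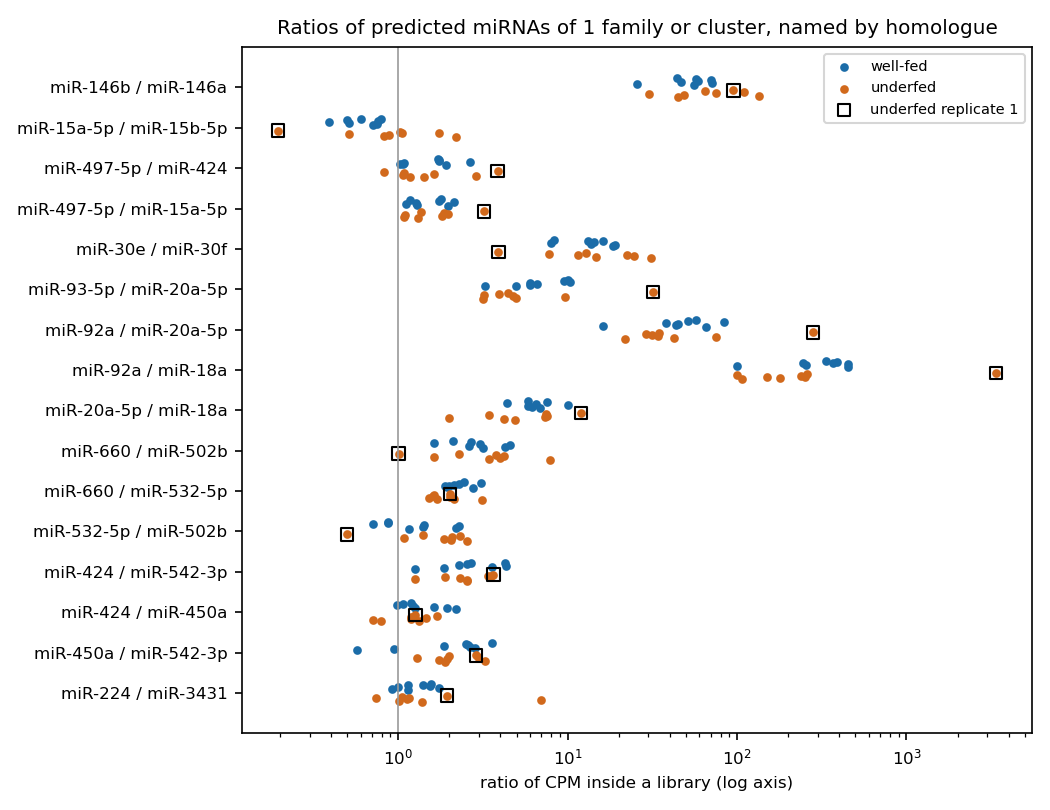
Ratio of the levels of members of 1 seed family or genomic cluster inside each library, on a log axis, with 1 point for each male (blue well-fed, orange underfed) and a line at a ratio of 1. The miR-92a homologue stands 16.1 to 282 times above the miR-20a homologue, while the miR-15a and miR-15b homologues lie on both sides of 1, and underfed replicate 1 holds the extreme value of several pairs.

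Variation between males of the same diet was then described by the coefficient of variation (CV) of CPM, averaged over the 2 diets. Its median was 38.5% over the 66 (16.3% to 83.3%) and 35.3% in the 13 deeper libraries. For 17 of the 66 the CV was under 30%. The steadiest by this CV were candidate-miR-101 (miR-660, 16.3%), candidate-miR-57 (miR-532-5p, 17.1%), candidate-miR-134 (miR-342, 18.6%), candidate-miR-177 (miR-361-5p, 19.1%) and candidate-miR-43 (miR-186-5p, 19.2%), 2 of them from the same X cluster. The order depended on scaling. On TMM-scaled log2 values the SD within diets was 0.27 to 0.42 for these 5, against 0.24 for candidate-miR-29 (miR-31). candidate-miR-134 had lowest, median and highest values of 720.5, 917 and 1109 CPM in well-fed and 576, 897 and 1259 CPM in underfed males.

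The most variable by the same CV were candidate-miR-150 (83.3%), candidate-miR-19 (miR-1247-5p, 73.6%), candidate-miR-141 (miR-146a, 69.8%), candidate-miR-168 (68.1%) and candidate-miR-92 (63.8%). The 3 of these without a homologue, candidate-miR-150, candidate-miR-168 and candidate-miR-92, were all 3 such members of the list. candidate-miR-150 ranged from 117 to 848 CPM in well-fed males (median 381) and from 45.3 to 597 CPM in underfed males (median 100.7). candidate-miR-168 ranged from 249 to 603 CPM in well-fed males (median 414) and from 55.4 to 671 CPM in underfed males (median 111). candidate-miR-92 ranged from 177 to 408 CPM in well-fed males (median 235) and from 48.5 to 476 CPM in underfed males (median 88.0). In each of the 3, underfed replicate 1 held the highest underfed value, and the scaled value of candidate-miR-168 there was 532, against 68.0 to 268 in the other 7 underfed males. candidate-miR-19 had lowest, median and highest values of 39.0, 120.2 and 319.8 CPM in well-fed and 0, 91.8 and 315 CPM in underfed males, and its 0 was in the shallow underfed replicate 6.

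**Figure D3:**
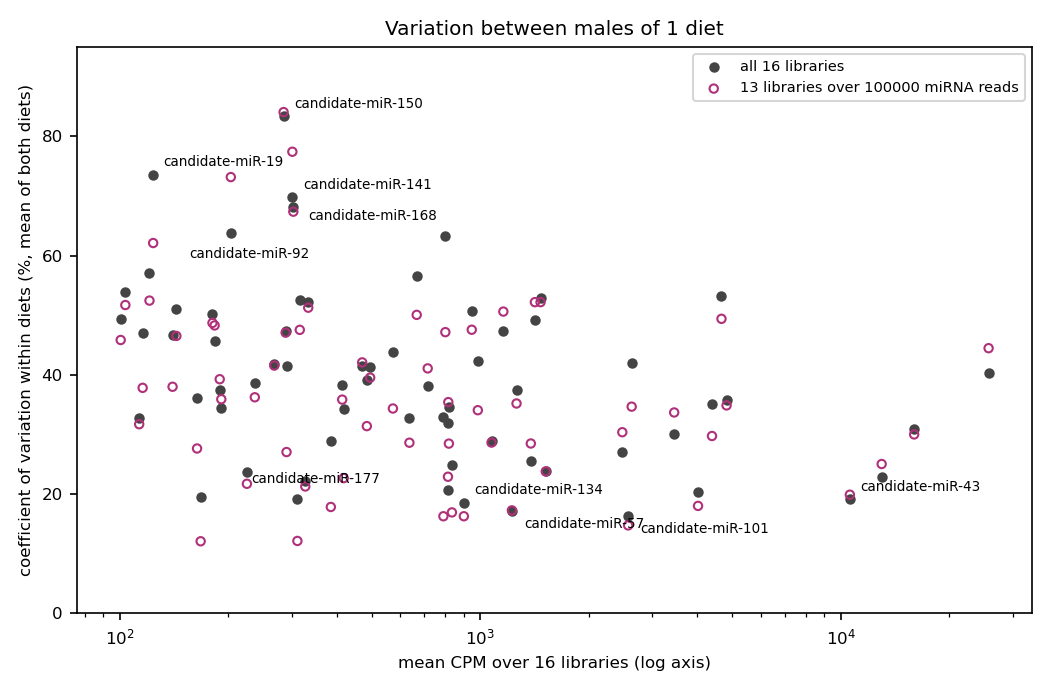
Coefficient of variation of CPM within diets (mean of both diets, percent) against the mean level over 16 libraries (CPM, log axis) for the 66 predicted miRNAs. Filled points use all 16 libraries and open points the 13 libraries with over 100000 miRNA reads; the values spread from 16.3% to 83.3% and the 5 highest all belong to miRNAs with a mean under 400 CPM.

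The diets were set against each other for all 271 miRNAs by limma on log2(CPM divided by the TMM factor + 1), after a filter that 244 miRNAs passed, all 66 among them. At an adjusted p (Benjamini-Hochberg) under 0.05, 0 of the 66 were called, where 6.15% of all miRNAs tested were, and nothing is read from that count, because miRNAs with a difference between diets had been left out by name. At an unadjusted p under 0.05 there were 17 (10 higher and 7 lower in underfed males), where 25.8% of all tested passed. With limma's voom on the recovered reads 9 were called (6 higher, 3 lower, 19.3% of all). The median log2 difference was 0.14 for the 66 and -0.08 for all tested, 39 of the 66 being positive and 27 negative. On the scaled values no member had diets that did not overlap (1.23% of all tested), and on CPM as deposited 1 had (2.05% of all), candidate-miR-26 (miR-222-3p, a paralogue of miR-221 in growth control), with values from 230.0 to 440.3 CPM in well-fed males (median 271) and from 99.8 to 221 CPM in underfed males (median 169.6).

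Underfed replicate 1 decided much of the count. Without it 15 of the 66 were called (9 higher, 6 lower, 18.8% of all tested), in the 13 deeper libraries 6 were called (17.0%), and in the deeper libraries other than underfed replicate 1 the number was 24 (14 higher, 10 lower, 35.5%). The scaling also decided the direction. Without TMM, 13 were called, all lower (15.6% of all tested were lower), and 26 of the 66 changed sign, since the difference moved by -0.48 in the median. With miRNAs and piRNAs normalized jointly, 38 were called, all higher (34.8% of all tested were higher), and 24 changed sign, with a median shift of 0.95. The medians of all miRNAs tested moved alike, to -0.51 and 0.81, so the signs below hold only relative to the other miRNAs.

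The lowest log2 differences (underfed minus well-fed, ± SE) were those of candidate-miR-158 (miR-184), candidate-miR-150 and candidate-miR-168. candidate-miR-158 ranged from 91.1 to 233 CPM in well-fed males (median 157) and from 0 to 188 CPM in underfed males (median 60.2), a log2 difference of -1.39 ± 0.75 that moved to -0.63 without underfed replicate 6, where it was at 0. The difference of candidate-miR-150 was -1.22 ± 0.39 and that of candidate-miR-168 -1.10 ± 0.34, with adjusted p of 0.0551 and 0.0527 in limma. All underfed CPM values of candidate-miR-168 but that of replicate 1 lay under its well-fed range. Once scaled by TMM, underfed replicate 5 at 268 also overlapped the well-fed values, the lowest of which was 231.

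The highest were those of candidate-miR-107 (miR-29a, a repressor of collagens), candidate-miR-87 (miR-101, a repressor of EZH2) and candidate-miR-177 (miR-361-5p). candidate-miR-107 ranged from 148 to 341 CPM in well-fed males (median 214) and from 146 to 758 CPM in underfed males (median 264), a log2 difference of 0.86 ± 0.35. candidate-miR-87 ranged from 853 to 1792 CPM in well-fed males (median 969.5) and from 657 to 3952 CPM in underfed males (median 1072), a log2 difference of 0.81 ± 0.34. Both had their highest CPM in the shallow underfed replicate 8 and overlapped widely between diets, while on the scaled values behind the difference candidate-miR-87 was highest in the deeper underfed replicate 4. candidate-miR-177 ranged from 117 to 394 CPM in well-fed males (median 292) and from 289 to 379 CPM in underfed males (median 337), a log2 difference of 0.77 ± 0.24 with an adjusted p of 0.0545 in limma, and its lowest well-fed value was 2 reads of the shallow replicate 5. candidate-miR-127 (miR-148b-3p, a partner of miR-148a) came nearest to a call, with 0.64 ± 0.19 and an adjusted p of 0.0519.

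**Figure D4:**
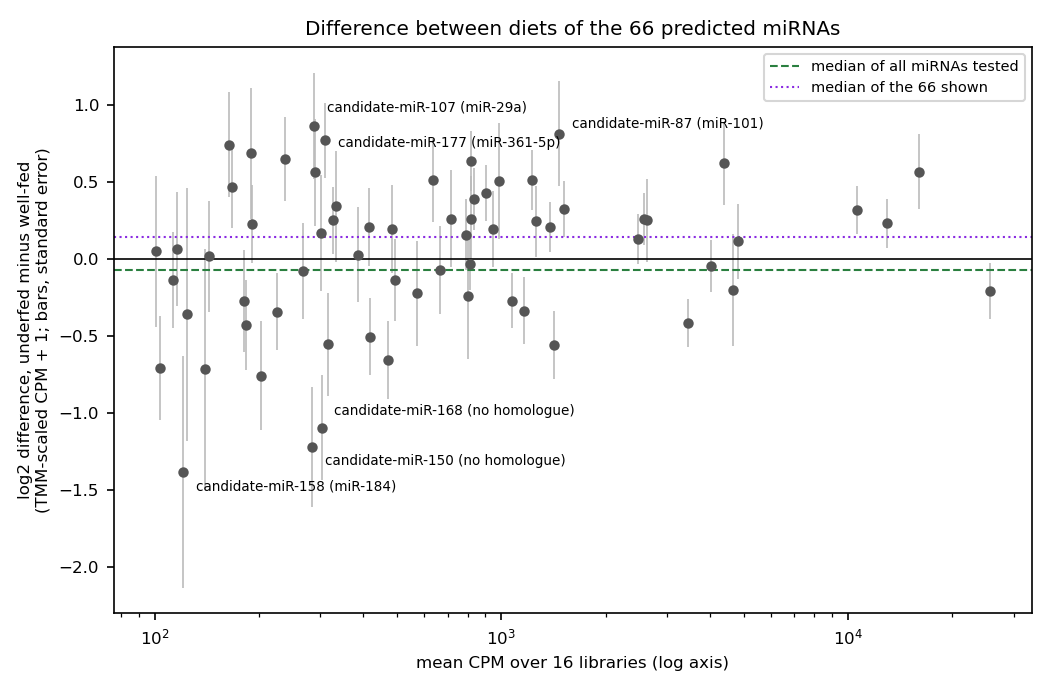
Difference between diets on the log2 scale (underfed minus well-fed, TMM-scaled CPM + 1) of the 66 predicted miRNAs, against their mean level (CPM, log axis). Bars are standard errors from limma, and the lines mark the medians of the 66 (0.14) and of all 244 miRNAs tested (-0.08); the 2 lowest points with short bars are miRNAs without a homologue.

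By group, 0 members were called in each, and the signs are those of the members of the 66 unless the whole list is named. All 5 of the immune group had a positive log2 difference (0.17 to 0.57), as had all 8 relatives of known abundant miRNAs (0.11 to 0.86), and no other miRNA was on these lists. The lowest of each turned negative with 1 male left out, candidate-miR-141 to -0.11 without underfed replicate 5 and candidate-miR-6 to -0.07 without well-fed replicate 8. The measured leukocyte markers were the 5 of the immune group and oar-miR-150. In CPM without TMM they summed to 13634 to 24919.5 CPM in well-fed males (median 16898). In underfed males the sum was 14132 to 31230 CPM (median 16924). The medians were close, so no rise of leukocyte markers is read from the signs, which rest on TMM. The 3 members of the miR-424 cluster were positive (0.26 to 0.51), and so was its other miRNA tested (0.13). The 3 members of the miR-660 cluster were positive (0.20 to 0.51), and its other miRNA tested was at -0.13.

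Of the testis-rich X list, the 4 members were positive (0.47 to 0.74), candidate-miR-103 (miR-508-5p) and candidate-miR-147 (miR-507) included, whereas the 5 others on that list, all under 100 CPM, were negative (-1.61 to -0.64). candidate-miR-103 and candidate-miR-147 were listed by homologue name, since the supplement's clusters did not place them on X, and no other tissue was measured. The 3 members without homologue were negative (-1.22 to -0.76), as were 24 of the 30 other miRNAs without homologue that were tested. Both members of the nervous system list were negative (-0.51 and -0.27), and over all 5 of its miRNAs tested 1 was positive and 4 negative. The 4 members of the miR-17-92 list lay at -0.42 to 0.05, 3 of them negative, and over its 9 miRNAs 4 were positive and 5 negative. Of 12 intronic members from single loci 6 were positive and 6 negative, of the members of the miR-15 group 3 and 1, and of the 15 in no list, at 104 to 985 CPM on average, 5 and 10. These are signs relative to all miRNAs after TMM. Many of them turned under the other scalings given above, and 16 of the 66 took both signs when each male was left out in turn.

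The last question was whether members of the same genomic cluster varied together between males of a diet, which the choice of members had not used. Deviations of the log2 scaled values from each diet's mean were correlated over 16 males for 10 pairs, with two-sided permutation p adjusted over the 10 pairs. Over all 2145 pairs of the 66 the median r was 0.04 (5th to 95th percentile -0.55 to 0.69), and over the 10 cluster pairs it was 0.12. The pair of candidate-miR-97 and candidate-miR-93 (miR-18a and miR-20a) had r = 0.81 and rho = 0.69, with a permutation p adjusted to 0.0054 for r and 0.0383 for rho (raw p 0.00054 and 0.00383). candidate-miR-51 correlated with candidate-miR-193 (r = 0.74, rho = 0.59, adjusted permutation p 0.00595 and 0.0657) and with candidate-miR-169 (r = 0.70, rho = 0.61, adjusted permutation p 0.0106 and 0.0657). candidate-miR-101 and candidate-miR-57 had r = 0.63 and rho = 0.52 (adjusted permutation p 0.0175 and 0.107). Only the first pair passed on ranks. How many of all 2145 pairs would pass the same test was not measured. The r of candidate-miR-101 with candidate-miR-57 lay under the 95th percentile of all pairs, and 41.6% of all pairs lay above the cluster median. Among the 65 partners of each of its 2 miRNAs, the 4 pairs ranked 2nd and 6th, 6th and 4th, 10th and 11th, and 7th and 3rd, in the order given.

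The other 6 pairs did not pass. candidate-miR-101 and candidate-miR-40 of the same X cluster had r = -0.56 and rho = -0.49 (adjusted permutation p 0.050 and 0.120), and candidate-miR-40 and candidate-miR-57 r = -0.24. The miR-92a homologue had r = -0.43 with the miR-18a and -0.41 with the miR-20a homologue, candidate-miR-47 and candidate-miR-63 had r = -0.41, and candidate-miR-169 and candidate-miR-193 r = 0.48. Whether a pair passed depended on few males. Without the 2 males farthest from the median of the first miRNA of a pair, 0 of the 10 pairs passed. The 4 coefficients above fell to 0.49, 0.46, 0.41 and 0.54. Leaving out such males also narrows the spread, which can lower r by itself, and candidate-miR-101 with candidate-miR-40 moved to -0.66. Without underfed replicate 1 alone 0 passed, and the 4 coefficients stood at 0.56, 0.53, 0.47 and 0.55. In the 13 deeper libraries, which include that male, 4 pairs passed, and the miR-18a and miR-20a homologues had r = 0.91.

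**Figure D5:**
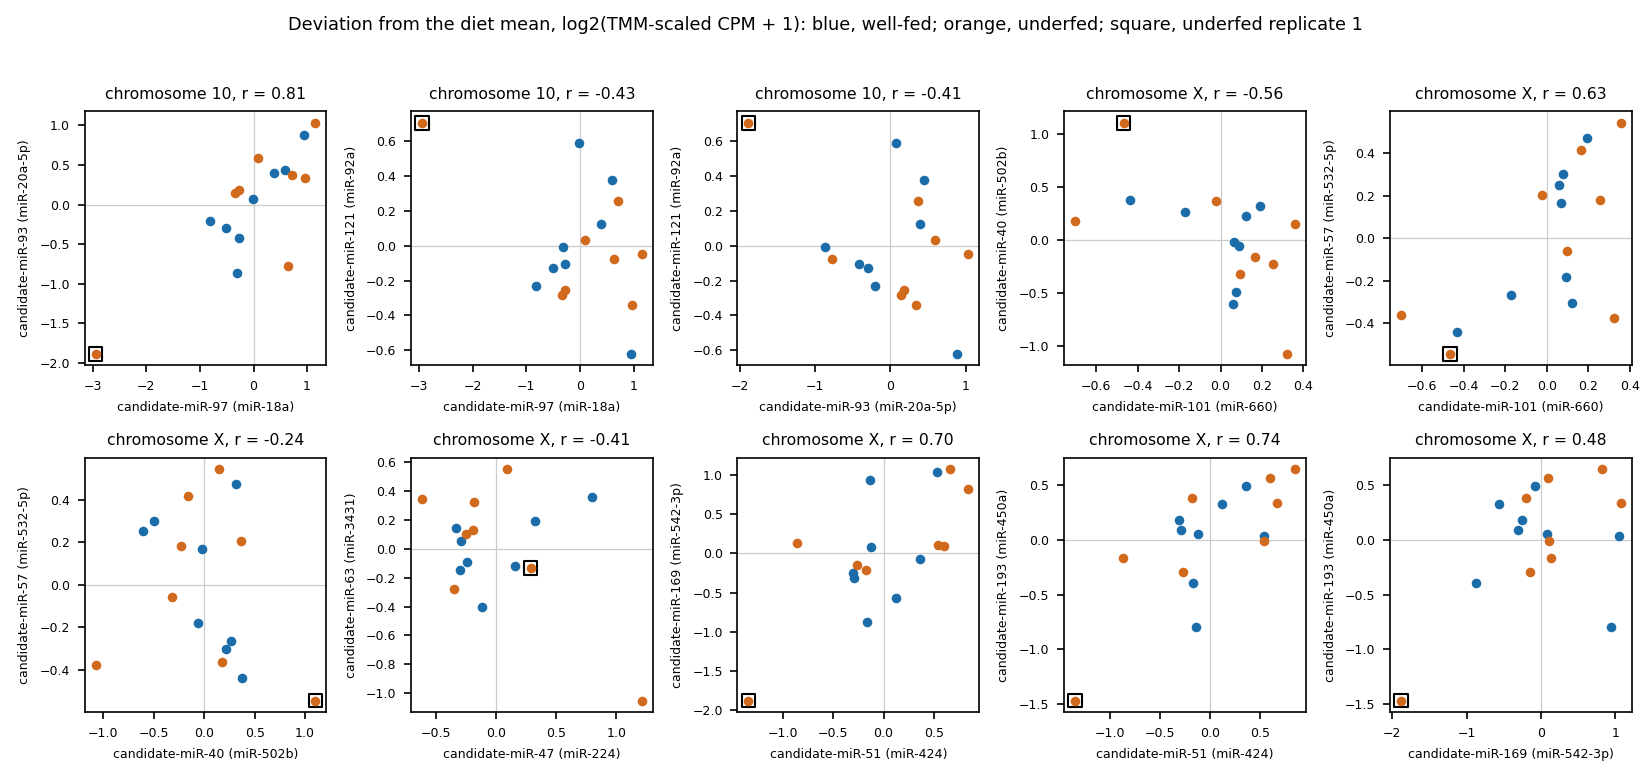
Deviation from the diet mean (log2 of TMM-scaled CPM + 1) of 2 predicted miRNAs of the same genomic cluster, 1 panel for each pair and 1 point for each of 16 males (blue well-fed, orange underfed). Underfed replicate 1 is marked and lies at the lower left in the pairs with the highest r, among them candidate-miR-97 with candidate-miR-93 (r = 0.81).

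Underfed replicate 1 was set against its own diet because it entered so many of these values. On the scaled values it was the lowest underfed male for 20 and the highest for 18 of the 66, and its median absolute deviation from the diet mean was 0.654 on the log2 scale, against 0.204 to 0.463 in the other 15 libraries. Farthest down were candidate-miR-97 (miR-18a), with 10.6 scaled CPM against 70.0 to 199 in the other underfed males, candidate-miR-147 (miR-507), with 31.9 against 185 to 361, and candidate-miR-22 (miR-6119-5p), with 164.98 against 781 to 2604. The labels put this library among the underfed males and give no reason for these values. Its miRNA to piRNA ratio, given above, lay in the well-fed range. Its germ cell marker sum of 44629 CPM lay under the well-fed values of 47497 to 71079 CPM (median 64054) and above the underfed median of 21506 CPM. Another underfed male reached 58155 CPM, inside the well-fed values. What this sum says of the label was not tested. A direction between diets that changes without this library therefore rests on a label that was not tested.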

How the data were processed

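The authors trimmed the reads, kept 18 to 25 nt for miRNAs, matched them to miRBase, predicted further miRNAs with miRDeep2 on OAR3.1 from the 16 libraries pooled and tested diets with edgeR. CASAVA 1.8 and Oar_v3.1 are named in the submitters' processing notes. The values deposited by the authors are CPM, other than the usual kind in that 1 column holds both classes, and a miRNA is scaled to the miRNA total while a piRNA is scaled to the piRNA total. Low values were whole multiples of 1 read (93.6% to 99.0% of low miRNA values within 0.05 reads, and 100% at multiples of 0.5 reads), which gave the reads behind each value.

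The members and the lists of miRNAs were chosen with earlier results of these data known. TMM factors (trimming 30% of log ratios and 5% of abundances) were computed in Python 3.11.15 over the miRNA class. Diets were compared with limma 3.58.1 (R 4.3.3, empirical Bayes with trend) on log2(CPM / TMM factor + 1), for miRNAs with CPM over 5 in at least 8 libraries, with Benjamini-Hochberg adjustment over all 244 tested, since CPM are not counts. Differences are on that log2 scale, where the added 1 shrinks those of low miRNAs but a 0 in a shallow library can enlarge them. For candidate-miR-158, candidate-miR-20 and candidate-miR-19 the difference was -1.39, -0.72 and -0.36, against -0.75, 0.01 and 0.41 with voom. The procedure was also run on simulated data, with 1 dispersion of 0.1 for all miRNAs and 40 miRNAs changed by a log2 of 2, up and down alike. No male was set apart there and no shift of all miRNAs between diets was added, so that run does not bear on either. Pairs of cluster members were tested by permutation of pairings (100000 resamples). Full values are given for the 12 highest members, the 3 lowest and 3 highest differences, the 5 highest and 5 lowest CV, the 3 members just above and the 3 other predicted miRNAs just below 100 CPM, and members of cluster or seed family pairs. Homologues, conservation classes and clusters come from the study's supplement, whose other values were not used. Intervals and floors cover counting error only. Alternatives were other scalings, filters and pseudocounts, robust shrinkage, a replicate block, voom, deeper libraries and each male left out. The deeper libraries other than underfed replicate 1, and each male left out of the pairs, were added after seeing the data.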

Additional observations from a re-analysis of the deposited data

Results flagged for a closer look

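In 17 of 132 groups (66 predicted miRNAs in 2 diets), 1 male lay apart from the other 7 of its diet by a Dixon test on the log2 scale, and chance flags about 1 in 20 groups, here 6.6. Values are TMM-scaled CPM, and no explanation was tested. Underfed replicate 1 accounted for 6. It was low for candidate-miR-22 (164.98, the next value being 781), candidate-miR-193 (261 and 590), candidate-miR-169 (90.5 and 291), candidate-miR-147 (31.9 and 185) and candidate-miR-97 (10.6 and 70.0, 2 reads), and high for candidate-miR-150 (474 and 142.5).

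Underfed replicate 6, with 27797 miRNA reads, accounted for 5, all low and resting on 0 to 2 reads. These were candidate-miR-11 (92.4), candidate-miR-180 (46.2) and the values of 0 for candidate-miR-20, candidate-miR-19 and candidate-miR-158. Well-fed replicate 5, with 17163 miRNA reads, accounted for 4, each 96.3 from 2 reads, for candidate-miR-194, candidate-miR-177, candidate-miR-16 and candidate-miR-150. The last 2 came from deeper libraries. Well-fed replicate 7 was high for candidate-miR-90 (miR-145-5p, 5328 with the next at 3509), and well-fed replicate 4 was low for candidate-miR-1 (miR-320a, 173 with the next at 308).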

How the results depend on the processing

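Against 0 of 66 called between diets, the number was 13 without TMM, 38 with joint normalization, 1 with a pseudocount of 0.1 (19 of 244 in all), 1 with robust shrinkage (16 of 244 in all), 9 with voom, 6 in libraries over 100000 reads, 24 in those other than underfed replicate 1 (added after seeing the data), and 0 to 15 with each male left out, the 15 being without underfed replicate 1. It remained 0 without a filter, with a pseudocount of 5, with the fold threshold of the study and with the replicate block. Replicate numbers did not pair the males: deviations of same-numbered males correlated with a mean of 0.0472 (-0.180 to 0.277), and 2 of 8 correlated best with their own number. Of 10 cluster pairs, 4 passed, and 8 with the replicate block (4 of them negative), 3 without TMM, 5 with a pseudocount of 5, 0 without the 2 farthest males, and 0 to 6 with each male left out, the 0 being without underfed replicate 1. Coefficients changed sign for candidate-miR-47 with candidate-miR-63 (0.28 in libraries over 100000 reads, 0.21 without the 2 farthest males, -0.63 to 0.29 with each male left out), for candidate-miR-97 with candidate-miR-121 (0.0065 and -0.51 to 0.0721), for candidate-miR-169 with candidate-miR-193 (-0.0647 and -0.0509 to 0.72) and for candidate-miR-40 with candidate-miR-57 (-0.54 to 0.0247 with each male left out). The number of members was 64 to 66 under each other way of taking the mean. A value near 100 CPM rests on as few as 2 reads in the 3 shallow libraries, so that differences between single males are not detectable there.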

Other observations

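Over the 2145 pairs of the 66 predicted miRNAs, the pair that varied most alike between males of a diet was candidate-miR-87 (miR-101) and candidate-miR-107 (miR-29a), with r = 0.94 and rho = 0.90. It kept r = 0.96 in the 13 deeper libraries and 0.92 without underfed replicate 1. The pair was picked from all pairs for its value and shares each library's scaling, so no p is given. The next pairs, candidate-miR-20 with candidate-miR-19 (r = 0.92) and with candidate-miR-158 (0.91), stood at 0.24 and 0.02 without underfed replicate 6, in which all 3 were at 0.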
